A study of Homo sapiens with 4 samples.

Results

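The 10 genes described here encode heat shock proteins of the cytosol, the chaperones that keep other proteins folded: HSPA1A, HSPA1B, HSPA6 and HSPA8 of the HSP70 family, HSPA4L and HSPH1 of the HSP110 family, the J-domain protein DNAJB1, HSP90AA1, and the small heat shock proteins HSPB1 and HSPB8. They were taken by symbol from a list, and all 10 had a row among the 23444 gene entries of the deposited tables. RNA of U87-MG cells, an established line from a human glioblastoma, was sequenced in 4 libraries. The 2 libraries named shMAGED2 carried a short hairpin RNA against MAGED2, a gene of the melanoma antigen family on the X chromosome, and the 2 named shCON carried a negative control hairpin. All were grown in MEM with antibiotics. The design text calls the knockdown stable, whereas the treatment protocol tells of transient Lipofectamine transfection with hairpins against ZDHHC15 and a harvest at 36 h, and which of these holds was not resolved. The labels do not say how many hairpin sequences or clones were used, or whether replicates were separate cultures, so p-values measure the spread between these libraries, which may be technical.

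An HSP70 protein binds exposed stretches of an unfolded protein while it cycles between ATP and ADP. A J-domain protein such as DNAJB1 delivers the client and triggers ATP hydrolysis, and an HSP110 protein exchanges the nucleotide so that the client is let go. HSP90 acts later on clients such as kinases and receptors, and small heat shock proteins hold unfolded proteins without using ATP. Some of these genes are always active, as HSPA8 is, and others are switched on by heat or misfolded protein through the transcription factor HSF1, which binds heat shock elements, arrays of inverted GAA units. HSPA6 is the human HSP70 gene best known for being nearly silent until such stress.

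Total counts over genes were between 28673774 and 36234336 per library, and the limit set by a count of 0 (3 counts) was between 0.0828 and 0.105 CPM, which is the count scaled to library size. MAGED2 had 526 and 795 counts in shMAGED2, against 6090 and 5225 in shCON, and its CPM, scaled by TMM, was 11.2% of that in shCON. ZDHHC15 had 0 counts in all 4 libraries, and no change of it could be seen at this depth. The shMAGED2 replicates differed from each other more than the shCON replicates did (chi-square per degree of freedom 89.5 and 7.42, both above sampling noise). Of the markers of a glioma line, vimentin (VIM) averaged 3998 FPKM in shMAGED2 and 4004 FPKM in shCON. CD44 averaged 293 and 231 FPKM in shMAGED2 and shCON, and TNC 146 and 133 FPKM. NES averaged 3.23 and 0.916 FPKM in shMAGED2 and shCON, and OLIG2 0.695 and 2.05 FPKM. GFAP, S100B and SOX2 each averaged under 1 FPKM in both groups. Of 6 such markers tested, NES rose (log2 change 1.88) and OLIG2 fell (-1.45). The 8 markers of other cell types, mostly CD68, summed to between 398 and 624 CPM in shMAGED2 and between 472 and 481 CPM in shCON, with the keratin KRT5 at 0 throughout.

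The comparison set the MAGED2 knockdown against the control hairpin. The family split: 4 of the 10 genes fell (HSPA6, HSPA1A, HSPA1B and DNAJB1), 3 rose (HSPA4L, HSPB8 and HSP90AA1) and 3 did not pass the test (HSPA8, HSPH1 and HSPB1). A gene was called at an adjusted p under 0.05 (edgeR quasi-likelihood test, Benjamini-Hochberg over 15293 genes). Of all genes tested, 23.9% were called, 12.3% as risen and 11.6% as fallen. The median log2 change of the 10 genes was 0.10, against 0.00284 for all genes tested. It was 0.02 without shMAGED2 replicate 1, 0.17 without shMAGED2 replicate 2, 0.04 with library size alone, 0.05 with upper-quartile factors, 0.03 in each fit to FPKM and 0.18 with HSPA1A, HSPA1B and HSPA1L summed. Their log2 changes ran from -5.91 to 1.22. Groups did not overlap in CPM for 9 of the 10 genes, with shMAGED2 higher in 5 and lower in 4. The same held for 66% of all genes tested, 33% higher and 33% lower. In RNA from whole cultures, fewer cells that express a gene and less of its RNA per cell cannot be told apart. Without shCON replicate 1, 2 fell and 2 rose (HSPA1A, DNAJB1 and HSP90AA1 missed the threshold), and without shCON replicate 2, 3 fell and 2 rose (DNAJB1 and HSP90AA1 missed it). Without shMAGED2 replicate 1 or 2, the log2 change of HSPA8 was 0.10 or 0.26 and that of HSPB1 0.12 or 0.57. In such fits the lone shMAGED2 library is taken to vary like the controls.

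**Figure D1:**
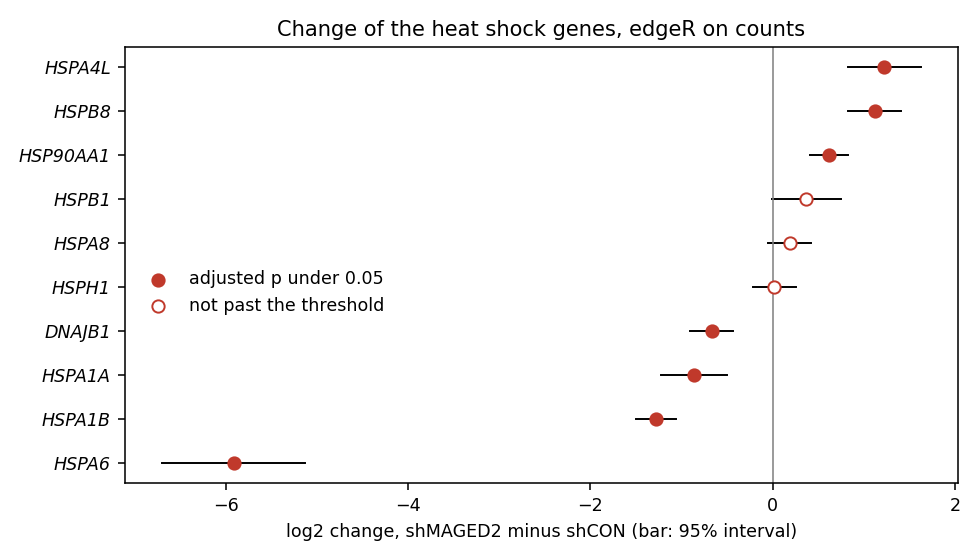
Log2 change of each heat shock gene, shMAGED2 minus shCON, from edgeR on the counts (point) with its 95% interval (bar), with filled points for genes past an adjusted p of 0.05. HSPA6 lies at -5.91, far below the other 3 genes that fell, and the 3 genes that rose lie between 0.62 and 1.22.

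The DNA just before a start site is shown for the 7 genes with a heat shock motif in the last 120 bases before it. Of each gene 1 start is given, 5′ to 3′ on the gene's strand, from RefSeq on GRCh38.p14. Positions count from that RefSeq start. It can differ from the end of the GENCODE span given for the gene further on. Some stretches therefore lie wholly or partly within that span, as for HSPB8 and HSPA1A. HSPA4L, HSPH1 and HSPB1 had no match in that stretch at any annotated start and are not printed. Capitals mark matches to a pair of inverted heat shock units, GAANNTTC or TTCNNGAA, and overlapping matches run together.
HSPA6, chr1:161524420-161524539, plus strand: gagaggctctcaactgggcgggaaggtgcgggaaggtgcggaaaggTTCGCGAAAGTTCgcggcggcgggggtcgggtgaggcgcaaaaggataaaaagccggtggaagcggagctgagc
HSPA1A, chr6:31815423-31815542, plus strand: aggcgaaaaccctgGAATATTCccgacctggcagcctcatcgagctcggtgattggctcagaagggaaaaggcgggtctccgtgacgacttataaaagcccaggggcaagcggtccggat
HSPA1B, chr6:31827618-31827737, plus strand: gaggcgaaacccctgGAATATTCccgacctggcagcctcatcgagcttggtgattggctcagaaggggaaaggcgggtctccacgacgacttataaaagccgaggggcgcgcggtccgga
DNAJB1, chr19:14518398-14518517, minus strand: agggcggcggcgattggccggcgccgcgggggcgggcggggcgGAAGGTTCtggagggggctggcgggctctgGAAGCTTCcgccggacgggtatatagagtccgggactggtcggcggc
HSPA8, chr11:123062137-123062256, minus strand: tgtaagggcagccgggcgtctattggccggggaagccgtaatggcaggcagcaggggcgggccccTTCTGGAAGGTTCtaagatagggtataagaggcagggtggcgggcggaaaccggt
HSP90AA1, chr14:102087045-102087164, minus strand: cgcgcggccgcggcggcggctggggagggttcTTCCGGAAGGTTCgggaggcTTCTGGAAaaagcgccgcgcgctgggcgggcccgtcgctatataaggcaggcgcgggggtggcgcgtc
HSPB8, chr12:119178811-119178930, plus strand: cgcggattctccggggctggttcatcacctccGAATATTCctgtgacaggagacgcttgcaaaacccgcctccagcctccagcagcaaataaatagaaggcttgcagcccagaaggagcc
A match of 3 units, GAANNTTCNNGAA or TTCNNGAANNTTC, contains 2 overlapping pairs. Both forms of each motif were searched, which covers both strands, in windows from 250 bases before to 50 after the start. In HSPA6, which fell most, the 3-unit match TTCGCGAAAGTTC began at position -74. In HSPA8, which did not pass the test, the 3-unit matches GAAAGTTCCAGAA and TTCTGGAAGGTTC began at -230 and -55, the first of them outside the stretch shown. In HSP90AA1, which rose, TTCCGGAAGGTTC began at -88, at the downstream one of its 2 annotated starts. A 3-unit match was thus found in 1 gene of each outcome, in 3 of the 15 windows of the 10 genes, and in 0.49% of all 35116 promoter windows in the table. HSPA1A and HSPA1B held the same pair GAATATTC at -106 and -105, and the windows of these genes were 92.0% identical over 301 aligned positions. HSPB8, which rose, held that same pair at -88. DNAJB1 held GAAGGTTC at -77 and GAAGCTTC at -47 of 1 of its 3 starts. At another of its starts GAAGCTTC began at position 2, past the start. A pair was present in 10 of the 15 windows of the 10 genes, and in 13.5% of all windows. Only HSPH1 had a pair in none of its windows. These are matches of letters and not measured binding. Only exact matches were searched, so an imperfect element would be missed. A link between the matches and the changes was not tested.

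The HSP70 genes went apart. HSPA6 (chromosome 1, 161524540 to 161526910, plus strand, a single exon; hg38, GENCODE 29) had 25 and 73 counts in shMAGED2, against 3043 and 2598 in shCON. In CPM this was 0.849 and 1.99 in shMAGED2, against 87.2 and 88.6 in shCON. Both shMAGED2 libraries were far below both shCON libraries, which were alike, and the shMAGED2 libraries differed from each other by more than a doubling. Its mean was 1.42 ± 0.81 CPM in shMAGED2 and 87.9 ± 0.97 CPM in shCON (SD, n = 2 each), which left 1.61% of the control level. The log2 change was -5.91 (SE 0.32, 95% interval -6.69 to -5.13; edgeR adjusted p = 0.00077), a level 60.2-fold lower in shMAGED2. It ranked 46 from the lowest of 15293 changes, and 0.301% of all genes tested had a change as low or lower.

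HSPA1B and HSPA1A, the stress-inducible HSP70 genes of the major histocompatibility region, fell less. HSPA1B (chromosome 6, 31827735 to 31830255) had 95.04 and 95.24 CPM in shMAGED2, against 236 and 226 CPM in shCON. HSPA1A (chromosome 6, 31815464 to 31817946) had 61.0 and 46.3 CPM in shMAGED2, against 99.3 and 95.9 CPM in shCON. HSPA1B overlaps the model AL671762.1 on its own strand by 920 bases. For both genes each shMAGED2 library lay below each shCON library. HSPA1B changed by -1.28 on the log2 scale (SE 0.09; edgeR adjusted p = 0.00101) and HSPA1A by -0.86 (SE 0.15; adjusted p = 0.0122), which for HSPA1A missed the threshold without shCON replicate 1 (adjusted p = 0.0613).

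HSPA1A and HSPA1B are near-identical copies on the same strand of the same chromosome, and how their reads were divided is uncertain. Their coding sequences, 1923 bases each, were 99.79% identical with 4 substitutions, and the longest run without a difference had 1709 bases. Of all windows of 100 bases in the HSPA1A transcript, 69.9% occurred also in another annotated gene, HSPA1B above all, and for HSPA1B the share was 72.7%. The share of HSPA1A in the counts of both was 39.1% (95% Wilson interval 37.7 to 40.5) and 32.7% (31.4 to 34.0) in shMAGED2 replicates 1 and 2, against 29.6% (28.8 to 30.5) and 29.8% (28.8 to 30.7) in shCON replicates 1 and 2. The shares were higher in both shMAGED2 libraries, where they differed from each other beyond counting error. The sum of both genes, which does not depend on the split between them, was 156.0 and 141.5 CPM in shMAGED2, against 335 and 322 CPM in shCON. Summed to 1 row with HSPA1L, a germ cell paralog next to HSPA1A, the copies had a log2 change of -1.14 (SE 0.10; edgeR adjusted p = 0.00147). HSPA1L alone had 57 and 49 counts in shMAGED2, against 87 and 91 in shCON (adjusted p = 0.169).

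HSPA6 has a near-copy as well. In windows of 100 bases, 27.6% of its transcript occurred also in HSPA7, a related gene not analysed here, and in windows of 150 bases 15.2% did. With HSPA1A it shared 80.6% of aligned coding positions and no identical run over 34 bases. How reads matching several genes were counted is stated in none of the sources used, so a part of the HSPA6 counts could come from HSPA7.

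HSPA8 (chromosome 11, 123057489 to 123063230, minus strand), the HSP70 gene of unstressed cells and the host of small nucleolar RNAs in its introns, had the highest FPKM of the 10. It had 1909 and 1710 CPM in shMAGED2, against 1622 and 1566 CPM in shCON. Both shMAGED2 libraries lay above both shCON libraries, by a margin smaller than the gap between the shMAGED2 libraries. In FPKM the shMAGED2 libraries stood in the other order, at 710 and 759 in shMAGED2, against 659 and 679 in shCON. The log2 change of 0.18 (95% interval -0.06 to 0.42; edgeR adjusted p = 0.229) did not pass. It passed without shMAGED2 replicate 1 (0.10, adjusted p = 0.00578) and without shMAGED2 replicate 2 (0.26, adjusted p = 3.15e-08), fits in which the lone shMAGED2 library is taken to vary like the controls. Pseudogene copies of HSPA8 shared 15.4% of its windows of 50 bases and 0 of its windows of 100 bases.

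Per length, in the FPKM deposited by the authors, the inducible genes made up a smaller share of HSP70 transcripts in both shMAGED2 libraries than in either shCON library. HSPA1A, HSPA1B and HSPA6 together gave 57.1 and 55.9 FPKM in shMAGED2, against 167 and 163 FPKM in shCON. They were 7.44% and 6.86% of the FPKM of the 4 HSP70 genes in shMAGED2, against 20.2% and 19.3% in shCON. The sum over the 4 genes, HSPA8 included, was 767 and 814.5 FPKM in shMAGED2, against 826 and 842 FPKM in shCON. In FPKM the groups thus did not overlap but lay close. In TMM-scaled CPM the groups overlapped for the same sum, and shMAGED2 replicate 1 was the highest library. HSPA8 was most of the sum, and the length implied by its counts and FPKM varied between libraries (coefficient of variation 5.02%). With 2 libraries a group, an exact permutation test of such a sum cannot reach 0.05, and none is given.

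**Figure D2:**
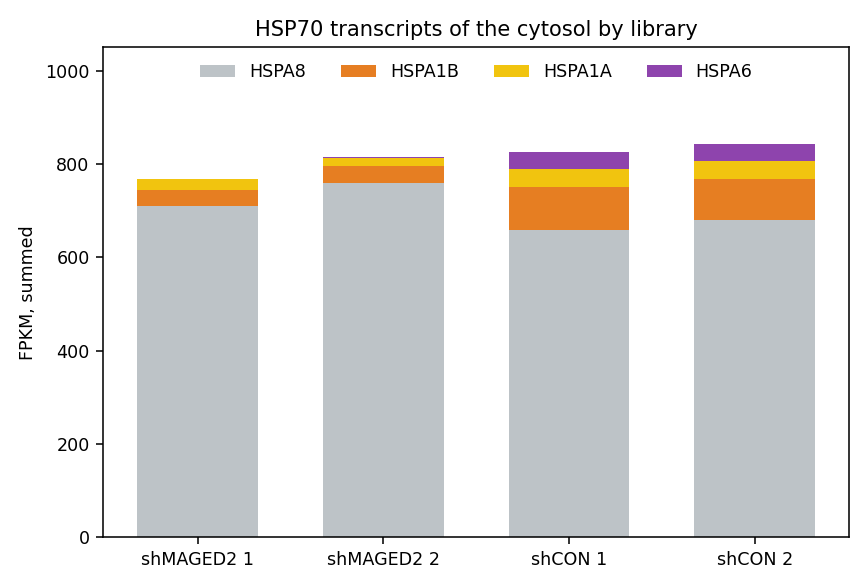
FPKM of HSPA8, HSPA1B, HSPA1A and HSPA6 stacked for each library, shMAGED2 replicates 1 and 2 and then shCON replicates 1 and 2. The bars of all 4 libraries reach between 767 and 842 FPKM, and the part above HSPA8 is 57.1 and 55.9 FPKM in shMAGED2, against 167 and 163 FPKM in shCON.

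DNAJB1 (chromosome 19, 14514770 to 14529770, minus strand), the J-domain protein also known as HSP40, fell. HSPA6, HSPA1A and HSPA1B fell as well, whereas HSPA8 did not pass the test. It had 168 and 187 CPM in shMAGED2, against 286 and 279 CPM in shCON. Both shMAGED2 libraries were lower than both shCON libraries, and the mean was 62.8% of that in shCON. The log2 change was -0.67 (SE 0.10; edgeR adjusted p = 0.00698). It missed the threshold without shCON replicate 1 (-0.66, adjusted p = 0.0907) or shCON replicate 2 (-0.69, adjusted p = 0.0685). Exons of DNAJB1 overlap those of TECR on the other strand by 211 bases, and whether the counts used strand is stated nowhere, so reads from these stretches cannot be told apart.

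Of the HSP110 genes, whose proteins release ADP from HSP70, HSPA4L rose and HSPH1 did not pass. HSPA4L (chromosome 4, 127781821 to 127840733, plus strand) had 42.1 and 34.8 CPM in shMAGED2, against 17.9 and 15.0 CPM in shCON. It was the largest rise of the 10 genes, with all shMAGED2 values above all shCON values and a log2 change of 1.22 (SE 0.16; edgeR adjusted p = 0.00566). Its exons overlap those of AC093591.1 and AC093591.2 on the other strand by 183 and 536 bases. HSPH1 (chromosome 13, 31134974 to 31162388, minus strand), which encodes the heat-inducible HSP105, had 180.0 and 163 CPM in shMAGED2, against 167 and 173 CPM in shCON. The groups of HSPH1 overlapped, and its log2 change was 0.02 with a 95% interval of -0.22 to 0.25 (edgeR adjusted p = 0.92). The sign of HSPH1 turned under other scalings, at -0.03 with upper-quartile factors and -0.05 with library size alone. The coding sequences of HSPA4L and HSPH1 were 64.0% identical, with no shared run over 20 bases.

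HSP90AA1 (chromosome 14, 102080738 to 102139699, minus strand), the inducible form of cytosolic HSP90, rose. It had 1791 and 1825 CPM in shMAGED2, against 1182 and 1176 CPM in shCON. Replicates lay close within each group, and the shMAGED2 mean was 153% of the shCON mean. The log2 change was 0.62 (SE 0.09; edgeR adjusted p = 0.00629). It missed the threshold when either shCON library was left out (adjusted p = 0.169 and 0.171), with the change almost as large (0.62 and 0.61). HSP90AB1, the constitutive form, averaged 2004 ± 42.7 CPM in shMAGED2 and 1617 ± 27.1 CPM in shCON (SD, n = 2 each), and its log2 change of 0.31 just missed the threshold (edgeR adjusted p = 0.0507). It passed with DESeq2 (0.0208) and limma-voom (0.0336), and in edgeR without a count filter (0.0408) or without robust estimation (0.0331). In edgeR it missed the threshold with upper-quartile factors (0.0783), library size alone (0.13), a filter of 5 CPM (0.0615) and a replicate block (0.139). It missed it as well in the limma fit to log2 FPKM with a pseudocount of 1 (0.278). Exons of HSP90AA1 overlap those of WDR20 on the other strand by 197 bases. Windows of 100 bases of HSP90AA1 occurred in pseudogenes for 2.14% of its transcript.

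Of the small heat shock genes, HSPB8 rose and HSPB1 did not pass. HSPB8 (chromosome 12, 119178642 to 119221131, plus strand), whose product works with BAG3 in clearing misfolded proteins by autophagy, had 51.8 and 57.1 CPM in shMAGED2, against 25.3 and 25.0 CPM in shCON. All shMAGED2 values exceeded all shCON values, and the log2 change was 1.12 (SE 0.12; edgeR adjusted p = 0.0026). HSPB1 (chromosome 7, 76302544 to 76304295, plus strand), also called HSP27, had 401 and 293 CPM in shMAGED2, against 273 and 267 CPM in shCON. Only shMAGED2 replicate 1 stood well above the controls. The log2 change was 0.37 (95% interval -0.01 to 0.75; edgeR adjusted p = 0.143), and it was 0.12 without shMAGED2 replicate 1 and 0.57 without shMAGED2 replicate 2, passing in both (adjusted p = 0.0423 and 5.39e-11).

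Levels of different genes were set beside each other only as FPKM. In shMAGED2 the order was HSPA8 (735 FPKM), HSP90AA1 (505), HSPB1 (336), DNAJB1 (75.9), HSPA1B (35.6), HSPH1 (31.7), HSPB8 (23.9), HSPA1A (20.3), HSPA4L (3.35) and HSPA6 (0.569). In shCON it was HSPA8 (669 FPKM), HSP90AA1 (344), HSPB1 (264), DNAJB1 (124), HSPA1B (90.0), HSPA1A (38.6), HSPA6 (36.4), HSPH1 (33.4), HSPB8 (11.5) and HSPA4L (1.50). The first 5 places were the same in both groups, and HSPA6 stood at place 10 in shMAGED2 and at place 7 in shCON. Neighbours in these orders did not overlap between their 2 libraries, except HSPB8 and HSPA1A in shMAGED2, whose ranges were 21.9 to 25.9 and 18.2 to 22.4 FPKM. Counts of the 10 genes together were 0.444% and 0.447% of all counts in shMAGED2, against 0.407% and 0.400% in shCON. Most of these counts came from HSPA8 and HSP90AA1, so this sum does not show the genes that fell.

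**Figure D3:**
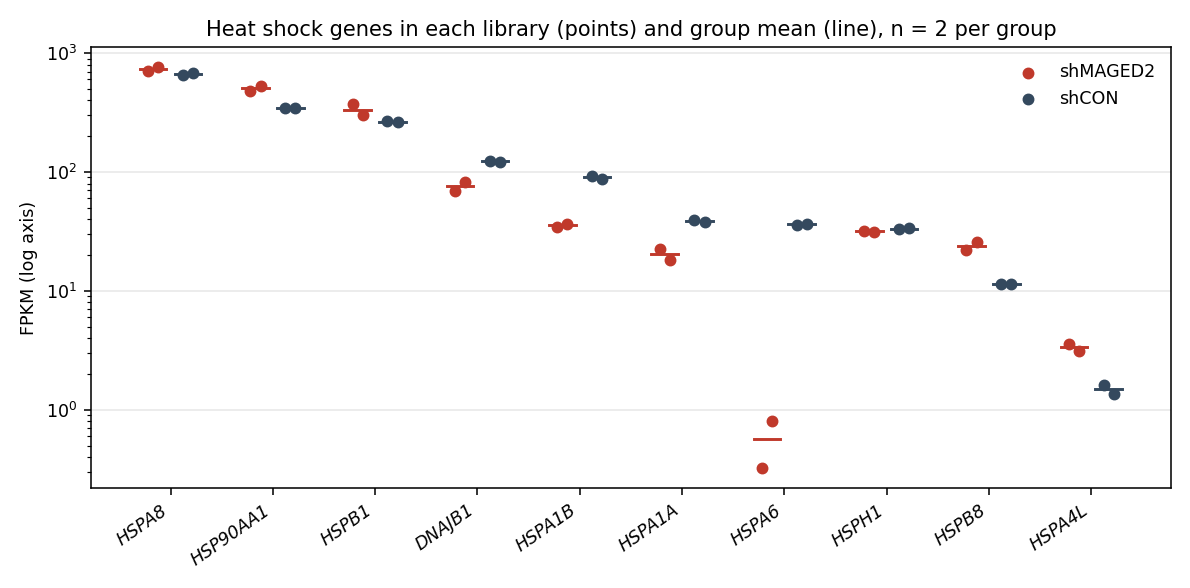
FPKM of the 10 heat shock genes on a log axis, with a point for each library and a line for the group mean, shMAGED2 left of shCON for each gene and genes ordered by their shCON mean. HSPA6 is at 0.326 and 0.811 FPKM in shMAGED2, against 36.1 and 36.7 FPKM in shCON, while HSPA8 is between 659 and 759 FPKM in all 4 libraries.

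The genes whose pattern over the 4 libraries was closest to that of HSPA6, by Euclidean distance of centred log2 CPM (prior count 2) among the 11232 genes averaging 5 CPM or more, were STRA6 (distance 0.26), AC245033.1 (1.36), an unannotated model (1.61), GPR1 (1.80) and UNC5B (2.26). STRA6, a retinol transporter, had 2 and 7 counts in shMAGED2, against 452 and 313 in shCON. AC245033.1 had 0 and 1 counts in shMAGED2, against 444 and 290 in shCON, and its place depends on the prior count. With a prior count of 0.5, tried after the data were seen, it ranked 8 (distance 2.74), and STRA6 still ranked 1 (distance 0.483). With a prior count of 5, tried likewise, STRA6 ranked 1 and AC245033.1 ranked 2, close together (0.614 and 0.69). HSPA6 was picked for its large change. All of these genes but UNC5B averaged 5 CPM only through shCON, with means from 0.0136 to 1.14 CPM in shMAGED2. The ranking thus mainly gathers genes with few or no counts in shMAGED2.

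Transcripts of HSF1 and HSF2, which bind heat shock elements, averaged 91.9 ± 15.3 and 41.5 ± 5.56 CPM in shMAGED2. In shCON the means of HSF1 and HSF2 were 77.3 ± 3.11 and 37.4 ± 0.80 CPM (SD, n = 2 each). Neither passed (edgeR adjusted p = 0.238 and 0.463). Without shMAGED2 replicate 2 both passed as risen (log2 changes 0.41 and 0.28), and 2 of the list fell. HSF4, a factor of the lens, fell by 0.58 on the log2 scale (edgeR adjusted p = 0.0478). It was the only call among the 5 factors and regulators listed, so 20% fell, against 11.6% of all genes tested. It missed the threshold without either shCON library (0.25 and 0.238), with library size alone (0.0572) and in the 3 fits to FPKM (0.0699 to 0.135).

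Of 12 listed partners of HSP90 and its constitutive form, 2 rose and 0 fell (edgeR; 7 higher and 0 lower at an unadjusted p under 0.05), with a median log2 change of 0.37. That was 16.7% risen and 0% fallen, against 12.3% and 11.6% of all genes tested. DESeq2 called 5 and limma-voom 3 as risen, upper-quartile factors, library size alone and the fits to FPKM 1 each, and all of these called 0 as fallen. AHSA1, which speeds the ATP hydrolysis of HSP90, had 131 ± 0.74 CPM in shMAGED2 and 90.3 ± 1.60 CPM in shCON (SD, n = 2 each). PTGES3, the co-chaperone p23, averaged 335 ± 52.4 CPM in shMAGED2 and 243 ± 2.14 CPM in shCON. AHSA1 and PTGES3 were the genes that rose (edgeR adjusted p = 0.0111 and 0.0449). PTGES3 missed the threshold with upper-quartile factors (0.0607), library size alone (0.107) and in the 3 fits to FPKM (0.264 to 0.384). Without either shCON library 0 rose, and without either shMAGED2 library 8 rose and 1 fell.

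Among 10 tested J-domain genes other than DNAJB1, DNAJC9, a histone co-chaperone, rose (log2 change 1.07, SE 0.13; edgeR adjusted p = 0.00368) and DNAJB2 fell (-0.51, SE 0.12; adjusted p = 0.0271). That was 10% risen and 10% fallen, against 12.3% and 11.6% of all genes tested, and the median was 0.04. That median changed sign with upper-quartile factors (-0.0035) and library size alone (-0.02), and in the fits to FPKM it was -0.05 with either pseudocount and -0.0013 without a filter. The number that rose was 3 without shMAGED2 replicate 1 and 4 without shMAGED2 replicate 2, where 3 fell. DNAJB2 missed the threshold without shCON replicate 1 or 2 (adjusted p = 0.213 and 0.23).

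Of 8 tested rows of other HSP70 and HSP110 genes, HSPA2, a testis-enriched HSP70, rose (0.62, SE 0.17; edgeR adjusted p = 0.0489) and HSPA13 fell (-1.10, SE 0.14; adjusted p = 0.00511). Risen and fallen were 12.5% each, against 12.3% and 11.6% of all genes tested. HSPA13 was placed in that list although its product is bound to microsomes. HSPA2 missed the threshold in 9 of 17 alternative fits, among them each fit without a shCON library (0.317 and 0.239), and 4 of the list rose without shMAGED2 replicate 1 and 2 without shMAGED2 replicate 2. HSPA4, the HSP110 protein of unstressed cells, averaged 396 ± 5.48 CPM in shMAGED2 and 332 ± 2.02 CPM in shCON (SD, n = 2 each; adjusted p = 0.0782).

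None of the 7 tested nucleotide exchange factors and ligases of HSP70, BAG3 and STUB1 among them, passed, with edgeR, DESeq2 and limma-voom alike (0 at an unadjusted p under 0.05 in edgeR, 1 in DESeq2). Without shMAGED2 replicate 1, 3 of them rose, and without shMAGED2 replicate 2, 1 rose and 2 fell. Of 8 other small heat shock genes only 4 had counts enough to be tested. None of these 4 passed in edgeR, DESeq2 or limma-voom, and 0 had an unadjusted p under 0.05 in edgeR. CRYAB, the stress-inducible small chaperone of muscle and lens, had 85 and 54 counts in shMAGED2, against 137 and 92 in shCON. Without shMAGED2 replicate 1, 1 of this list fell, and without shMAGED2 replicate 2, 1 rose.

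Chaperones of other compartments were set beside those of the cytosol by counts and medians alone. Of 15 chaperones of the endoplasmic reticulum, 14 fell and 0 rose (edgeR, and likewise DESeq2 and limma-voom; 14 lower and 0 higher at an unadjusted p under 0.05), with a median log2 change of -1.07. With each library left out, 13 to 15 fell. HSP90B1, the HSP90 of the reticulum, fell (-1.54, SE 0.09), whereas HSP90AA1 of the cytosol rose, and the HSP70 of the reticulum, HSPA5, fell as well (-2.68, SE 0.10). In the mitochondrial list of 9, HSPD1 (0.41, SE 0.08) and TRAP1 (0.77, SE 0.12) rose and HSPA9 (-0.52, SE 0.09) fell, with a median of 0.21. Of 14 subunits of the chaperonin CCT and of prefoldin, 5 rose and 0 fell (edgeR, and likewise DESeq2 and limma-voom; 7 higher and 0 lower at an unadjusted p under 0.05 in edgeR), with a median of 0.31 and CCT7 (0.54, SE 0.10), CCT2 (0.47, SE 0.10) and PFDN1 (0.46, SE 0.10) first by p. With library size alone 2 of the chaperonin list rose, and in the 3 fits to FPKM 0, where HSPD1 and HSPA9 missed the threshold as well. Without either shCON library, 0 of the mitochondrial and 0 of the chaperonin list passed. Without shMAGED2 replicate 1, 4 mitochondrial genes rose and 2 fell and 9 of the chaperonin list rose, and without shMAGED2 replicate 2, 4 mitochondrial genes rose and 3 fell and 7 of the chaperonin list rose and 2 fell. As shares in the main fit, 93.3% of the reticulum, 11.1% of the mitochondrial and 0% of the chaperonin list fell, against 11.6% of all genes tested. Risen were 0%, 22.2% and 35.7%, against 12.3% of all genes tested. Differences between these lists were not tested.

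**Figure D4:**
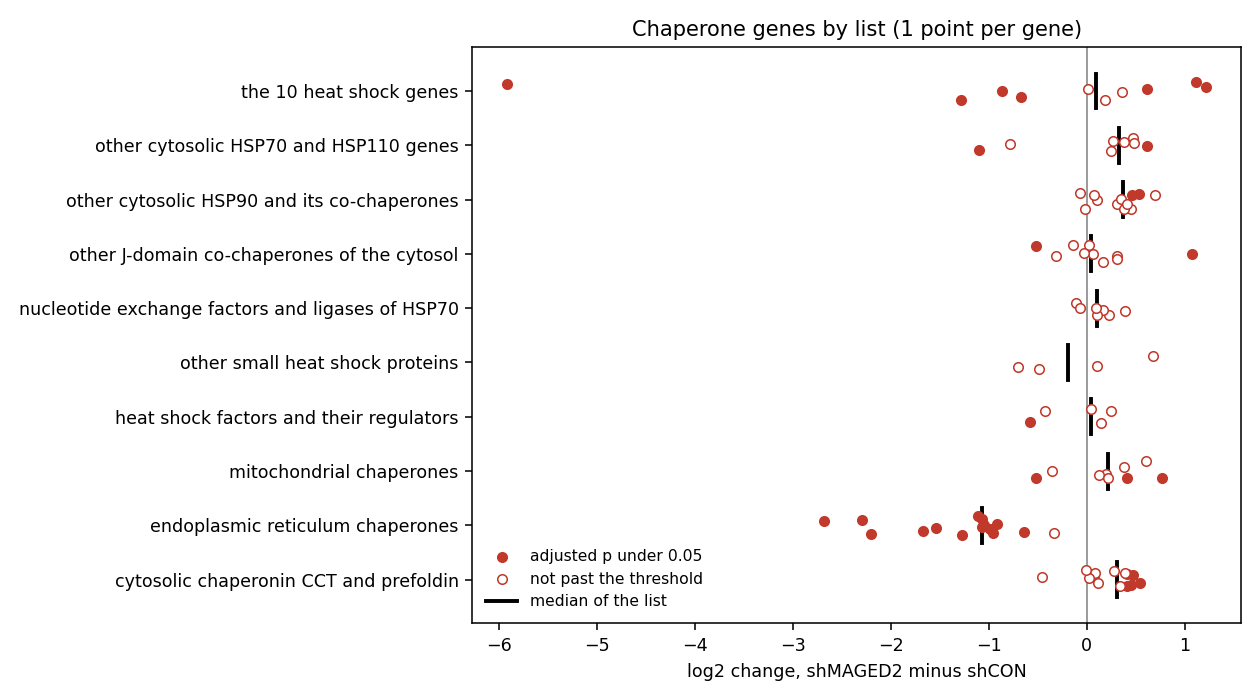
Log2 change, shMAGED2 minus shCON, of each tested gene in the lists of chaperones, 1 point per gene, filled where the adjusted p is under 0.05, with a black line at the list's median. The medians are -1.07 for the endoplasmic reticulum and 0.10 for the 10 heat shock genes, whose points spread from -5.91 to 1.22.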

How the data were processed

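RNA-seq counts of 4 U87-MG libraries were compared, grouped by their titles. The authors deposited whole-number counts per gene, not normalised, and FPKM, which is relative to gene length and library total. HISAT2, StringTie and SAMtools on hg38 are named in the submitters' processing notes, without roles or versions. Per the labels' protocols, total RNA was made into libraries by a NEBNext Ultra kit. For the annotation, strand setting and treatment of multiply matching reads: not given in the sources used here. Division of counts by FPKM gave nearly the same length for HSPA6, HSPA1A and HSPA1B in all libraries (coefficient of variation 0.406%, 0.223% and 0.217%), and for HSPA8 a length that varied by 5.02%.

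Counts were filtered with filterByExpr, scaled by TMM and tested in edgeR 4.0.16 (R 4.3.3) with a robust quasi-likelihood model of group alone, two-sided, over 15293 genes, with 2 residual degrees of freedom. Standard errors come from the F statistic. DESeq2 1.42.0, limma 3.58.1 and further alternatives are given in the closing section. Only the edgeR fit was tried on simulated counts, and the other fits, the pattern search and the sequence searches were not. Shared windows and coding identity were computed from GENCODE 29 transcripts, and promoters are RefSeq's. All 10 genes were matched. Wilson intervals and the limit of a count of 0 cover counting error only.

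Genes, lists and tests were chosen with earlier results of these data known. Named are the 10 genes, the labelled targets, close paralogs, HSF1 and HSF2, up to 3 genes per direction and list with the smallest p, and the 5 genes closest to the pattern of the most changed member. Any further gene was named with its values in view. The share of HSPA6 in its sum with HSPA7 was planned and is not reported here.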

Additional observations from a re-analysis of the deposited data

How the results depend on the processing

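HSPA6 and HSPB8 kept their direction and their call in all 17 alternatives, with log2 changes of -6.69 to -4.59 and 1.00 to 1.18, and HSPA1B in the 16 that keep its row apart (-1.34 to -1.25). HSPA4L missed the threshold in the unfiltered FPKM fit (0.80, adjusted p = 0.0539), as did HSP90AA1 (0.55, adjusted p = 0.0891). HSPH1, never called, changed sign with upper-quartile factors (-0.0296), library size alone (-0.0463), a filter of 5 CPM (-0.00334), and log2 FPKM with a pseudocount of 1, filtered or not (-0.0762 in both), or 0.1 (-0.0783), and it ran from -0.0542 to 0.0827 when single libraries were left out (-0.0136 without shCON replicate 1). Genes called numbered 1640 (763 risen, 877 fallen) in the unfiltered FPKM fit, where 1 of the 10 heat shock genes rose, and 1244 rose with a pseudocount of 0.1. The cause was not tested. Over all single genes named, 63 alternative values lost a call, 14 gained one and 546 did neither. Leaving out single libraries gave 1100 to 7447 genes called, 567 to 3725 risen and 533 to 3722 fallen, with 4 to 9 of the 10 genes called, 2 to 5 risen and 2 to 4 fallen. Replicates 1 and 2 did not deviate together between the groups (r = -0.02 over 15293 genes), and the replicate block gave 3336 calls, against 3649 without it, with 7 of the 10 genes and 3 of the chaperonin list called. Depth limits HSPA1L, CRYAB and the untested small heat shock genes.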
